A study of Rattus norvegicus with 16 samples.

Results

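The response shared by 3 dithiolethiones in rat liver was measured as the average of the D3T, OLT and TBD group means minus the vehicle mean, so that each compound carried equal weight. It drew on all 16 arrays of the series: 12 from compound-treated rats and 4 from vehicle rats, with 4 animals in each of 4 groups. Every one of the 8740 probe sets of the deposited table was scored, and the 5323 that lay above their array's 40th percentile on at least 4 arrays were tested. Male Fischer F344 rats, 6 weeks old on arrival, were gavaged with saturated sucrose alone, D3T (the parent ring, 3H-1,2-dithiole-3-thione), OLT (oltipraz, its methyl and pyrazinyl derivative) or TBD (its tert-butyl derivative). Dosing with each compound was 0.3 mmol per kg body weight every other day, 3 doses within 5 days, and the rats were killed 24 h after the final one. Titles describe the control livers as untreated; since the treatment text has those rats receiving sucrose, the group is named vehicle. Total RNA from whole liver was hybridised in 1 colour, so each value averages all cell types of the organ.

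Dithiolethiones are sulfur heterocycles known as inducers of liver detoxification enzymes. They act in large part through NRF2, a transcription factor that the adaptor KEAP1 holds back in resting cells; modification of KEAP1 cysteines frees NRF2, which with a small MAF partner binds antioxidant response elements near genes for glutathione transferases, quinone reductase and aldehyde reductases. In rat liver this induction is known for its protection against aflatoxin. The 3 compounds share the dithiolethione ring: D3T carries no substituent, TBD a tert-butyl group, and OLT a methyl and a pyrazinyl group. Liver cells also answer foreign compounds through the receptors CAR, PXR and AhR, which control many cytochrome P450 genes.

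Values are log2 expression as deposited, and array medians lay between 3.27 and 3.58. Arrays of one group correlated at 0.983 to 0.997. Vehicle replicates 2 and 4 lay farthest from the compound arrays on the first principal component (39.9% of variance), at -38.8 and -38.5 against -17.0 and -22.9 for vehicle replicates 1 and 3 and -2.9 to 17.0 for the compounds. OLT replicate 1 and TBD replicate 4 stood apart on the second (13%), at -21.7 and -21.8. Results that turn on these arrays are given with and without them. Albumin (Alb), the defining hepatocyte gene, read 15.3 to 15.9 on every array.

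The class response was broad, and falls outnumbered rises. Of 5323 probe sets tested, 1067 (20%) differed between the class and vehicle at an adjusted p under 0.05 (limma, Benjamini-Hochberg over all tested), 307 higher (5.77%) and 760 lower (14.3%). Among 3104 genes, each represented by its brightest tested probe set, 616 passed (19.8%), 138 higher (4.45%) and 478 lower (15.4%). The median difference was 0.69 among rises and -0.80 among falls, and 0.0042 over all probe sets tested. At least 2-fold differences numbered 88 rises and 262 falls, and at least 4-fold differences 24 and 35. All 12 compound arrays lay beyond all 4 vehicle arrays for 385 probe sets (7.23%), 118 above (2.22%) and 267 below (5.02%); 117 of the 307 rises and 260 of the 760 falls were separated in this way. Counted by gene, 229 were separated (7.38%), 53 above (1.71%) and 176 below (5.67%).

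Every comparison with vehicle shares the same 4 vehicle arrays, and the counts depended most on replicates 2 and 4 of these. The calls numbered 1090 without vehicle replicate 1, 949 without vehicle replicate 3 and 1047 without both. Without vehicle replicate 2 the calls numbered 723 and without vehicle replicate 4 they numbered 778; without both, 415 passed, 155 higher and 260 lower, of which 400 also passed with all arrays. Rises were 28.8% of calls as deposited, but 34.2% when arrays were centred on their medians and 46.1% (542 higher, 634 lower) after quantile normalization. Just inside the threshold lay Afm, Sprr1a and Dgkz (adjusted p = 0.0488 to 0.0498), and just outside it Hnrnpc, Ndufb9 and Prps1 (0.0501 to 0.0504).

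**Figure D1:**
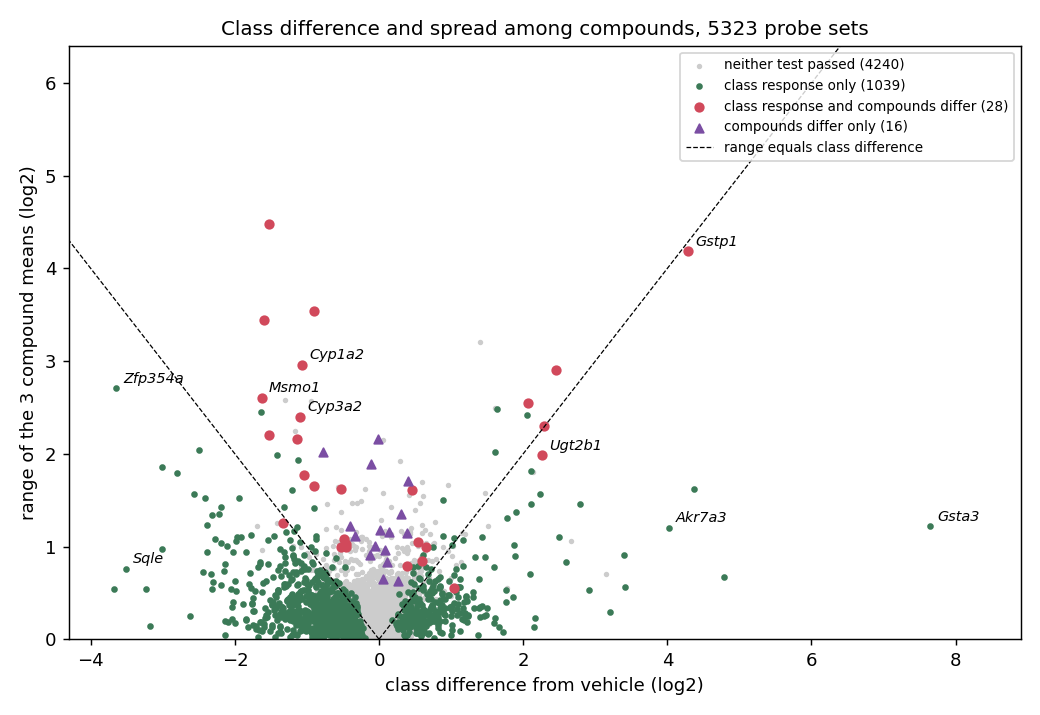
Class difference from vehicle (log2, horizontal) against the range of the D3T, OLT and TBD means (log2, vertical) for 5323 tested probe sets. Green points passed the class test only (1039), red points passed both the class test and the test among compounds (28), and purple triangles passed the test among compounds only (16); below the dashed lines the compounds differ from each other by less than the class differs from vehicle.

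Phase II and carbonyl-detoxifying enzymes led the rises. The largest was Gsta3, an alpha class glutathione transferase that conjugates the aflatoxin epoxide. Its 4 vehicle arrays read 3.31, 2.98, 3.25 and 3.27, and the 12 compound arrays ran from 9.08 to 12.01 (median 11.05). The groups were 5.77 log2 units apart at their nearest, and the class difference was 7.64 ± 0.37 (SE; adjusted p = 1.84e-08, limma). Vehicle values of Gsta3 lay near or under the array medians, so the low end of this difference is poorly fixed, and its other probe sets gave 4.37 and 2.17. Akr7a3, the aflatoxin aldehyde reductase, read 8.37, 8.48, 8.43 and 8.56 in vehicle and 11.01 to 13.55 (median 12.54) with compounds. That is a rise of 4.02 ± 0.26 (adjusted p = 2.93e-07), or 16.3-fold, from a level that hardly varied between vehicle rats. Gstp1, the pi class transferase, read 6.33, 6.14, 6.04 and 6.02 in vehicle and 6.61 to 13.10 (median 10.84) with compounds. Its class difference of 4.28 ± 0.48 (adjusted p = 3.93e-05) was the most uneven among compounds of the large rises, as its per-compound values show further on.

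Ephx1, the microsomal epoxide hydrolase, read 11.17, 11.12, 11.34 and 11.15 in vehicle and 12.36 to 13.24 (median 12.96) with compounds. Its rise of 1.71 ± 0.15 (adjusted p = 5.48e-06) was nearly the same for D3T, OLT and TBD, at 1.75, 1.71 and 1.68. Aldh1a1, which oxidises retinal and other aldehydes, rose by 1.66 ± 0.26 (adjusted p = 0.000433), again with compounds close together at 1.70, 1.71 and 1.58. Nqo1, the NAD(P)H quinone reductase long used to gauge NRF2 activity, read 4.77, 4.30, 4.39 and 4.02 in vehicle and 4.53 to 8.79 (median 7.41) with compounds. It rose by 2.78 ± 0.56 (adjusted p = 0.00279), although its lowest TBD array, at 4.53, fell inside the vehicle range. Without vehicle replicates 2 and 4 the Nqo1 call was lost (adjusted p = 0.0786).

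Rises of similar size were also found in genes outside detoxification. Mif, a cytokine with tautomerase activity, read 9.46, 9.55, 9.53 and 9.62 in vehicle and 10.74 to 11.67 (median 11.30) with compounds, a tight rise of 1.77 ± 0.089 (adjusted p = 1.95e-08). Rfk, riboflavin kinase, which makes the flavin cofactors, read 5.23, 5.85, 5.71 and 4.28 in vehicle and 6.14 to 8.28 (median 7.49) with compounds and rose by 2.11 ± 0.24 (adjusted p = 3.93e-05). Acaa1b, a peroxisomal thiolase, rose by 1.90 ± 0.24 (adjusted p = 0.000104). Nedd4, a ubiquitin ligase, rose by 1.86; Rab14, a GTPase of endosomal traffic, by 1.78; Cavin3, a caveolar coat protein, by 1.61; Cyp2a1, a testosterone hydroxylase, by 1.39; and Litaf, a late endosomal protein, by 1.30 (adjusted p = 1.43e-05 to 0.00123). In each of these genes the lowest compound array lay above the highest vehicle array, which the rule for naming the 15 largest rises and falls requires. The remaining pair, Cox6c and Rps24, varied widely within vehicle.

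Cox6c, a subunit of cytochrome c oxidase, read 8.28, 7.89, 8.13 and 5.19 in vehicle and 8.38 to 11.67 (median 10.69) with compounds, a difference of 3.21 ± 0.62 (adjusted p = 0.00203). Vehicle replicate 4 stood well under the other vehicle arrays, and without vehicle replicates 2 and 4 the adjusted p was 0.0601. Rps24, a small ribosomal subunit protein, read 4.92, 5.40, 3.38 and 3.35 in vehicle and 6.12 to 8.43 (median 6.92) with compounds, a difference of 2.91 ± 0.44 (adjusted p = 0.000345).

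**Figure D2:**
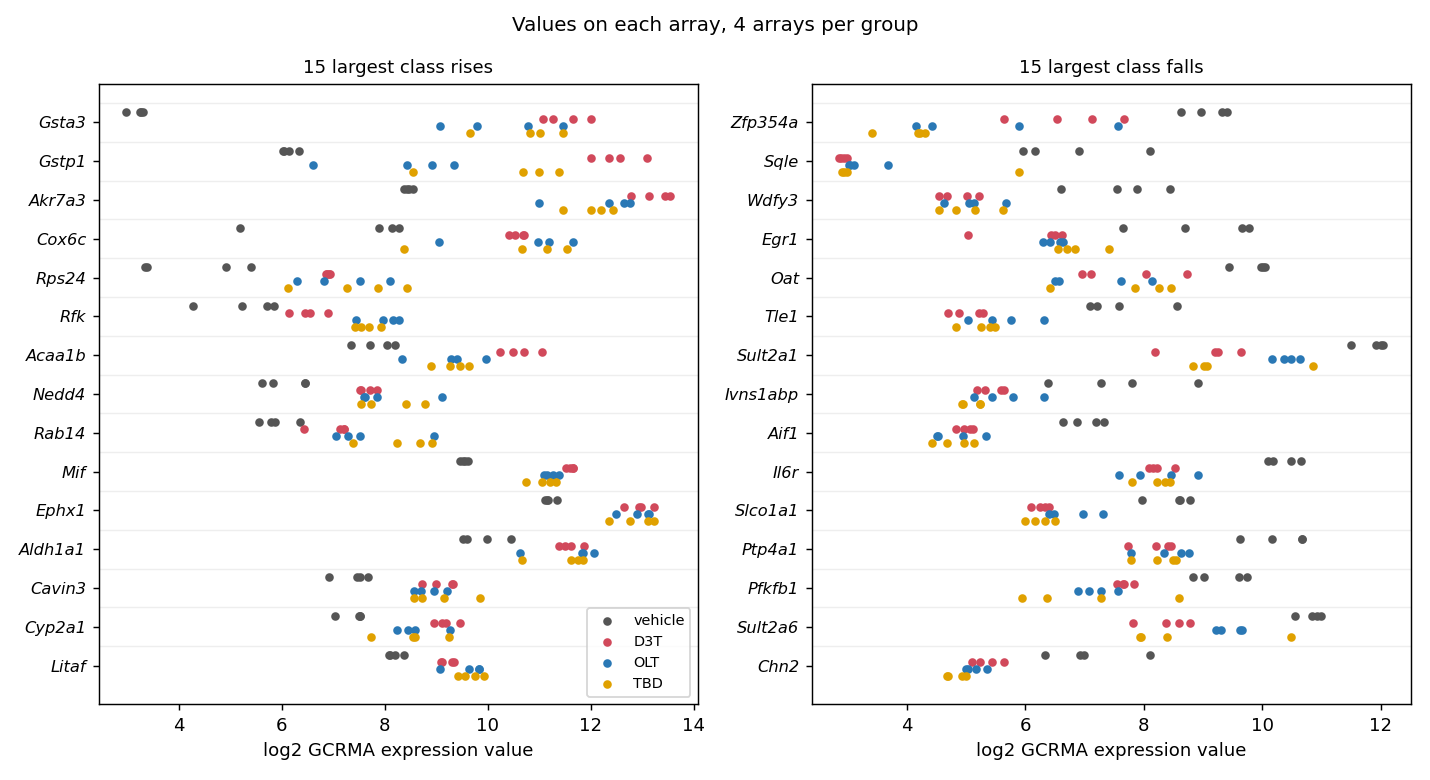
Deposited log2 expression value on each of the 16 arrays (horizontal) for the 15 largest class rises (left) and the 15 largest class falls (right), 4 points per group in grey (vehicle), red (D3T), blue (OLT) and yellow (TBD). By the rule that chose these genes no compound array overlaps the vehicle arrays; Gsta3 vehicle points lie at 2.98 to 3.31 and its compound points at 9.08 to 12.01.

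The core of the antioxidant response element, TGACNNNGC, was searched on both strands from 250 bases before to 50 after each gene's start in RefSeq's GRCr8 annotation, 1 promoter per gene. It was present for 4 of the 13 largest rises with a promoter in that table (Gsta3, Gstp1, Rfk and Mif) and for 0 of 13 of the largest falls. Among tested genes with a promoter it was found in 26 of 124 that rose (21.0%), in 69 of 407 that fell (17.0%) and in 400 of all 2584 (15.5%), and in 3342 of all 27457 promoters of the table (12.2%). Of the 26 promoters of the NRF2 target list, 10 held it (38.5%). A match of this kind describes letters in a window and shows no binding. Named genes that fell also hold matches within 100 bases of the start, Per2 at 69, Got1 at 44, Cebpb at 61, Proc at 19 and Clec4f at 84 bases. The 250 bases before the start are shown for the 4 genes of the largest rises that hold a match; capitals mark the matched letters. The Gsta3 window lies at chr9:31154739-31154988 on the + strand, with the match starting 17 bases before the start. The Gstp1 window lies at chr1:210769706-210769955 on the - strand, with the match at 61 bases. The Rfk window lies at chr1:224226382-224226631 on the + strand, with the match at 11 bases. The Mif window lies at chr20:12790107-12790356 on the + strand and has matches on the opposite strand at 92 and 3 bases, the latter running past the start so that only its first letters are shown.
Gsta3: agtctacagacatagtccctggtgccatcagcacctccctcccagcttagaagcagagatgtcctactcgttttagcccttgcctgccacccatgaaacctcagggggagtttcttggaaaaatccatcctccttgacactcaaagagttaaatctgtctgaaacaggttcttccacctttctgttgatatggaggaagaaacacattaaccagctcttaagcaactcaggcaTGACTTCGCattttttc
Gstp1: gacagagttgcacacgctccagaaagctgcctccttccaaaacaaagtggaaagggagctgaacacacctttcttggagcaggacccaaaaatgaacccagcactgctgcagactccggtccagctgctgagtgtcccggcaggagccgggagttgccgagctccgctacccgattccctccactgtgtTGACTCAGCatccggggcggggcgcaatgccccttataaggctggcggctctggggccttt
Rfk: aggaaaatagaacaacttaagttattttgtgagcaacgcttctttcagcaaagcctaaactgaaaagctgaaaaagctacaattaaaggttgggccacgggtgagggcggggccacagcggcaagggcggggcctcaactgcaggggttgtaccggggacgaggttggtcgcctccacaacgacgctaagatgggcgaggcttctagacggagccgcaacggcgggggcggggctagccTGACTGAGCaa
Mif: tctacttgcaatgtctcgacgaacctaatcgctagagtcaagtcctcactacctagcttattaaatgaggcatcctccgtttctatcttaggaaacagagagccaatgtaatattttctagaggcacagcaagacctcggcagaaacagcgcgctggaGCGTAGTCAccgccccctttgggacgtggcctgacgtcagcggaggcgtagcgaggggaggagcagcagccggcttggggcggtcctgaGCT

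Of 30 tested NRF2 target genes, 15 rose and 0 fell, against 4.45% and 15.4% of all genes, and their median class difference was 0.61 against -0.0041 over all genes. All 12 compound arrays lay above all 4 vehicle arrays for 10 of them, against 1.71% of genes. Besides the leaders above, Tkt, transketolase of the pentose phosphate pathway, rose by 1.46 ± 0.26 (adjusted p = 0.00119), and Ugdh, which makes UDP-glucuronate, by 1.01 ± 0.23 (adjusted p = 0.00569). Gsr, glutathione reductase, rose by 1.02 ± 0.29 (adjusted p = 0.0213), and Me1, the NADPH-making malic enzyme, by 0.92 ± 0.27 (adjusted p = 0.0246). The smallest rises of the list were Akr7a2 (0.48), Gstm2 (0.60) and Gstm1 (0.78). Without vehicle replicates 2 and 4, 11 members passed higher, and 1 member fell without OLT replicate 1; the Gsr call was lost without vehicle replicate 2 (0.83, adjusted p = 0.108), and the Me1 call without vehicle replicate 2 (0.79, adjusted p = 0.11), 3 (0.92, adjusted p = 0.0577) or 4 (0.94, adjusted p = 0.0604).

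Several classic NRF2 targets did not pass with all arrays at equal weight. Gclc, the catalytic subunit of glutamate-cysteine ligase, which limits glutathione synthesis, read 7.44, 7.30, 7.43 and 8.07 in vehicle and 6.87 to 9.76 (median 8.28) with compounds. Its class difference was 0.83 ± 0.43 (adjusted p = 0.221), with a 95% interval from -0.095 to 1.75. Gclm, the modifier subunit, differed by 0.31 ± 0.24 (adjusted p = 0.492), and its other probe sets read -0.19 (adjusted p = 0.735) and -1.31 (adjusted p = 0.0359), so the probe sets of this gene disagree in sign. Gclc passed without the TBD arrays (1.04; limma, adjusted p = 0.0484), and both Gclc (0.79, adjusted p = 0.0082) and Gclm (0.36, adjusted p = 0.0188) passed with array weights. In the weighted fit vehicle replicate 3 took a weight of 19.4, against at most 2.62 for any other array. The vehicle mean there rested mainly on that array. Txnrd1, thioredoxin reductase, differed by 0.29 ± 0.36 (adjusted p = 0.734), and Hmox1, heme oxygenase, by 0.12 (adjusted p = 0.906). The highest Gclc arrays were OLT replicate 1 (9.76), TBD replicate 4 (9.69) and D3T replicate 4 (9.49), and Txnrd1 was highest on the same arrays. In the list of glutathione synthesis, reduction and thioredoxin genes, 2 of 19 rose, Gsr and Cth (10.5%, against 4.45% of all genes). In that list 0 fell, and the median was 0.023.

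Conjugating enzymes split by reaction, to be read against 4.45% higher and 15.4% lower over all genes. Glutathione transferases rose in 9 of 15 tested genes with 0 falls and a median of 0.60; the theta class members Gstt1 and Gstt2 rose by 1.10 and 1.02, the microsomal Mgst2 and Mgst1 by 0.83 and 0.45, and Gsta1 by 0.88. Glucuronidation genes rose in 4 of 7 with 0 falls: Ugt2b1, a glucuronosyltransferase, by 2.26 ± 0.23 (adjusted p = 1.63e-05), Ugdh as above, and Ugt2b35 and Ugt2b15 by 0.35 and 0.27. The Ugt2b35 call was lost without vehicle replicate 2 (0.30, adjusted p = 0.0682). Sulfotransferases went the other way, with 4 of 9 lower and 0 higher. Sult2a1, which sulfates bile acids and hydroxysteroids, read 12.01, 11.93, 11.50 and 12.04 in vehicle and 8.19 to 10.85 (median 9.45) with compounds and fell by 2.22 ± 0.31 (adjusted p = 0.000225). Its relatives Sult2a6 and Sult2a2 showed -1.98 and -1.79, and Sult1c3 -0.64. Sult2a, Ugt2b and Cyp3a genes each have close relatives whose transcripts may bind the same probes, so members of a family are not independent readings. Without vehicle replicates 2 and 4, 8 transferases and 2 glucuronidation genes rose and 3 sulfotransferases fell; without vehicle replicates 1 and 3, 1 glucuronidation gene rose and the Ugdh call was lost (0.84, adjusted p = 0.0798). Other Sult2a1 probe sets read -2.20 and -2.80 (limma, adjusted p = 0.000269 and 0.00207). A dim one, with a vehicle mean of 4.18, read 0.15 (adjusted p = 0.417).

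Aldehyde, carbonyl and epoxide enzymes rose in 6 of 15 tested genes (40%, against 4.45% of all genes), led by Akr7a3, Nqo1, Ephx1 and Aldh1a1. Falls made up 13.3% of the list, against 15.4% of all genes. The 2 that fell were Akr1c14, a hydroxysteroid dehydrogenase (-0.71), and Aldh3a2, the fatty aldehyde dehydrogenase (-0.44); 4 fell without OLT replicate 1. Cytochrome P450 genes and other CAR and PXR targets moved both ways, 6 higher and 6 lower of 18 (33.3% each). Of the 18, 5 differed among compounds, against 0.644% of all genes. Cyp2b2, the phenobarbital-inducible P450, rose by 1.61 ± 0.36 (adjusted p = 0.00509), yet its per-compound values were 0.35, 2.37 and 2.12 for D3T, OLT and TBD. Por, the reductase that feeds electrons to P450 enzymes, fell, at -1.47 ± 0.23 (adjusted p = 0.000433). Alas1, the first enzyme of heme synthesis, showed -1.14 ± 0.36 (adjusted p = 0.0377), a call lost in the fits without any 1 of the 4 vehicle arrays, D3T replicate 1, 3 or 4, OLT replicate 2, 3 or 4 or TBD replicate 2 (adjusted p = 0.0516 to 0.109). The falls in the CAR and PXR list numbered 3 without vehicle replicate 3 and 2 without vehicle replicate 4.

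The largest falls took in regulators, lipid enzymes and transporters. Zfp354a, a zinc finger protein with a KRAB repressor domain, read 8.63, 9.41, 8.96 and 9.33 in vehicle and 3.41 to 7.66 (median 5.03) with compounds. Its class difference was -3.65 ± 0.50 (adjusted p = 0.00018), a 12.6-fold fall, and TBD replicate 4 was the lowest array. Sqle, squalene epoxidase of cholesterol synthesis, read 6.16, 8.10, 5.97 and 6.91 in vehicle; 10 of the 12 compound arrays lay under their array's median, and TBD replicate 4 stood out at 5.90. Sqle showed -3.51 ± 0.47 (adjusted p = 0.000174), with the lower end poorly fixed by values this dim. Slco1a1, a sinusoidal uptake carrier for bile acids and organic anions, read 7.98, 8.78, 8.59 and 8.61 in vehicle and 5.99 to 7.32 (median 6.37) with compounds, a fall of 2.05 ± 0.17 (adjusted p = 3.12e-06).

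Egr1, an immediate early transcription factor, read 7.65, 9.67, 8.71 and 9.77 in vehicle and 5.04 to 7.41 (median 6.57) with compounds, a difference of -2.44 ± 0.35 (adjusted p = 0.000227). Its highest compound array lay just under its lowest vehicle array. Il6r, the interleukin-6 receptor chain through which hepatocytes receive the acute phase signal, read 10.18, 10.66, 10.11 and 10.49 in vehicle and 7.58 to 8.92 (median 8.22) with compounds, a difference of -2.13 ± 0.20 (adjusted p = 8.56e-06). Oat, ornithine aminotransferase, differed by -2.32 ± 0.40; Tle1, a Groucho corepressor, by -2.31 ± 0.25; Wdfy3, an autophagy adaptor, by -2.62 ± 0.28; and Ivns1abp, a kelch-repeat protein, by -2.20 ± 0.32 (adjusted p = 3.07e-05 to 0.000873). Ptp4a1, a protein tyrosine phosphatase, Pfkfb1, the liver enzyme that sets fructose bisphosphate levels, and Chn2, a Rac GTPase-activating protein, showed -2.00, -2.00 and -1.98. The Pfkfb1 call was lost without vehicle replicates 2 and 4 (adjusted p = 0.0542). For Wdfy3, Tle1, Egr1, Chn2 and Ivns1abp, vehicle replicate 2 was the highest or next to highest of the 4 vehicle arrays.

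Aif1, a macrophage gene, completed the 15. It read 6.63, 7.19, 6.88 and 7.34 in vehicle and 4.43 to 5.33 (median 4.96) with compounds, a difference of -2.13 ± 0.16 (adjusted p = 1.8e-06), and its other probe set gave -1.03. In whole-liver RNA, fewer cells of a type and less RNA per cell cannot be told apart. Of 7 tested markers of Kupffer cells and other macrophages, 4 were lower and 0 higher, against 15.4% and 4.45% of all genes, with a median of -0.82: Aif1, Clec4f (-1.08 ± 0.17), Cd74 (-1.04 ± 0.24) and C1qb (-0.82). Lyz2, C1qc and Csf1r showed -0.066, 0.02 and 0.027, none past the threshold. Lyz2 read 7.39 to 8.51 over all arrays. C1qc (3.71 to 4.70) and Csf1r (3.59 to 3.99) lay near the array medians of 3.27 to 3.58, where a fall could hardly show. Summed over the 7 markers, the level on the log2 scale was 11.3 to 11.8 in vehicle, 10.4 to 10.7 with D3T, 10.3 to 10.8 with OLT and 10.5 to 10.9 with TBD, so that no compound array reached the vehicle range. All 7 passed the filter for testing, and Cd68, Cd163, Marco, C1qa and Vsig4 are not on the array under those symbols.

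Of 11 antigen presentation genes tested, 5 fell (45.5%, against 15.4% of all genes) and 0 rose, median -0.67. The falls were the class II chains RT1-Bb (-1.45 ± 0.21), RT1-Da (-1.15 ± 0.21) and RT1-Ba (-0.80), the class II invariant chain Cd74, and RT1-S3 (-0.67). Stellate cell markers fell in 3 of 4 tested (75%, against 15.4% of all genes). Of the 8 on the array, Col1a2, Des, Pdgfrb and Acta2 were not tested. Each of these lay under the array median on all 16 arrays. Col1a1, the type I collagen chain, read 6.59, 7.18, 6.59 and 7.47 in vehicle and 2.68 to 7.05 (median 3.48) with compounds. It was 8.03-fold lower (limma, adjusted p = 0.00107), while another Col1a1 probe set showed -0.43 (adjusted p = 0.0172). Vim showed -1.03 ± 0.20 and Col3a1 -0.59 ± 0.17, while Dcn read 0.74 without passing. OLT replicate 4 kept Col1a1 within the vehicle range, and 6 of the compound arrays lay under the array median. Lyve1 alone of 5 sinusoidal endothelial markers passed, at -1.30 ± 0.25 (20% lower, near the 15.4% of all genes). Without vehicle replicates 2 and 4, 2 antigen presentation genes and 3 macrophage markers passed lower, while Col1a1 (adjusted p = 0.0501), Vim (0.0722) and Lyve1 (0.122) lost their calls, and without vehicle replicate 4 alone the Col3a1 call was lost (-0.45, adjusted p = 0.0986). Summed stellate markers ran from 9.8 to 10.5 in vehicle, 8.8 to 9.4 with D3T, 9.5 to 10.2 with OLT and 8.9 to 9.7 with TBD, and summed hepatocyte markers from 16.7 to 16.8, 17.0 to 17.1, 16.7 to 17.0 and 16.8 to 17.1. The part of cell make-up in the class response was not tested.

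The shares of falls that follow are to be read against 15.4% lower and 4.45% higher over all genes. In cholesterol synthesis 7 of 14 tested genes fell (50%) and 1 rose (7.14%), median -0.76. By compound the list median was -1.16 for D3T, -0.64 for OLT and -0.53 for TBD. Below Sqle came Insig1, the sterol-regulated retention protein of the endoplasmic reticulum (-1.63 ± 0.49), the methyl sterol oxidase Msmo1 (-1.63 ± 0.30), the isomerase Idi1 (-1.45), Ebp (-1.01), Fdps (-0.78) and Lss (-0.74). Fdft1, squalene synthase, was the member that rose (0.47), and this call was lost in the fits without vehicle replicate 2, 3 or 4, D3T replicate 1 or 4, OLT replicate 1 or TBD replicate 1 or 3. Insig1 lost its call without vehicle replicate 1 (-1.50, adjusted p = 0.0793), 2 (-1.43, adjusted p = 0.118) or 4 (-1.60, adjusted p = 0.0765), and 2 members fell without both vehicle replicates 2 and 4. The highest compound array of Insig1, at 12.19, exceeded its highest vehicle array, at 11.68. Another Insig1 probe set read -2.48, -0.79 and -0.24 for D3T, OLT and TBD (limma class test, adjusted p = 0.188). Msmo1 lost its call without the D3T arrays. Srebf1, the transcription factor that drives fatty acid synthesis, rose: it read 4.31, 3.36, 3.56 and 4.45 in vehicle and 4.12 to 7.10 (median 6.28) with compounds, a difference of 2.24 ± 0.34 (adjusted p = 0.000364). Fasn and Pnpla3 stood at 1.51 (limma, adjusted p = 0.254) and 1.40 (adjusted p = 0.48). Me1 was the other of the 2 rises among 11 fatty acid and triglyceride synthesis genes (18.2%, against 4.45% of all genes), with 0 falls. Without vehicle replicate 2, 3 or 4 only Srebf1 passed.

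PPAR alpha targets and fatty acid oxidation genes fell in 11 of 26 (42.3%), median -0.40, while 1 rose, the thiolase Acaa1b named above. Hacl1, a peroxisomal lyase of alpha oxidation, read 8.65, 10.30, 9.88 and 9.64 in vehicle and 6.42 to 8.80 (median 7.65) with compounds, a difference of -1.94 ± 0.31 (adjusted p = 0.000549). Cyp4a1, the fatty acid omega-hydroxylase, showed -1.40 ± 0.23 (adjusted p = 0.000531), followed by Ech1 (-1.19), Ehhadh (-0.86) and the carnitine palmitoyltransferase Cpt1a (-0.75). Bile acid genes fell in 10 of 23 (43.5%) and rose in 0, median -0.35: after Slco1a1 came Fgfr4, the receptor for the ileal hormone that restrains bile acid synthesis (-1.41 ± 0.18), and Nr0b2, the repressor SHP (-1.37 ± 0.33). Cyp7a1, the rate-limiting enzyme, differed by -0.95 ± 0.52 without passing (adjusted p = 0.249), with compound arrays spread from 4.37 to 8.44 (median 6.21). Steroid enzymes fell in 6 of 14 (42.9%) and rose in 0, among them Cyp17a1, the androgen-forming lyase (-1.92 ± 0.23), and Sts, steroid sulfatase (-1.08 ± 0.29). Without vehicle replicates 2 and 4 the falls numbered 4 in fatty acid oxidation, 4 in the bile acid list and 3 in steroid metabolism, and the Sts call was lost without vehicle replicate 2 (-0.87, adjusted p = 0.0835) or 4 (-0.87, adjusted p = 0.0738).

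Of 27 amino acid catabolism genes, 11 fell (40.7%, against 15.4% of all genes) and 2 rose (Haao and Cth), median -0.43. Got1, cytosolic aspartate aminotransferase, read 8.28, 10.57, 9.21 and 10.00 in vehicle and 5.45 to 8.50 (median 7.21) with compounds, a difference of -2.56 ± 0.47 (adjusted p = 0.00131), with vehicle replicate 1 inside the compound range. Oat, described above, and Tat, tyrosine aminotransferase (-1.19 ± 0.32), followed, then the serine dehydratase Sds (-1.12) and the tryptophan dioxygenase Tdo2 (-0.74). Gluconeogenesis and glycogen genes fell in 6 of 14 (42.9%) and rose in 2: besides Got1 and Pfkfb1, pyruvate carboxylase Pc (-1.40 ± 0.24), glycogen synthase Gys2 (-1.01) and the glucagon receptor Gcgr (-0.95) fell, while Fbp1 (0.29) and Mdh1 (0.56) rose. Both urea cycle calls, Asl (-0.61 ± 0.16) and Arg1 (-0.42 ± 0.13), were falls among 5 genes (40%, against 15.4% of all genes). The amino acid count was 5 without vehicle replicate 2, 7 without vehicle replicate 3, 5 without vehicle replicate 4 and 2 without both 2 and 4. Tat lost its call without vehicle replicate 2 or 4 (adjusted p = 0.0631 to 0.0673), Asl without vehicle replicate 2 or 3 (0.0566 to 0.0695), and Arg1 without vehicle replicate 3 or 4 or D3T replicate 1 or 4 (0.0504 to 0.135). The rises in the glucose list numbered 1 without vehicle replicate 3 or 4, and the falls 3 without vehicle replicates 2 and 4.

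Of 6 clock genes tested, 3 fell (50%, against 15.4% of all genes) and 0 rose. Per2, a core repressor of the circadian clock, read 5.83, 6.11, 5.59 and 6.20 in vehicle and 3.82 to 4.42 (median 4.11) with compounds, a difference of -1.84 ± 0.10 (adjusted p = 6.51e-08) with groups far apart and compounds close together. Nr1d2, a nuclear receptor of the clock, showed -1.78 ± 0.23 (adjusted p = 0.00011), and the clock output factor Dbp -1.41 ± 0.43 (adjusted p = 0.0325), a call lost without any one of the 4 vehicle arrays, D3T replicate 1 or 4, or OLT replicate 2 (adjusted p = 0.0501 to 0.133). Another Dbp probe set read -0.20, -0.91 and -2.79 for D3T, OLT and TBD and did not pass the class test (limma, adjusted p = 0.341). Its difference among compounds did not pass either (F test, adjusted p = 0.529). Medians of the 6 clock genes were -0.16 with D3T, -0.77 with OLT and -0.99 with TBD. Bmal1, Tef and Nr1d1 did not pass, at 0.14, -0.016 and 0.41. The hour at which each rat was killed was not among the sources used here, so time of day was not tested. In the insulin-like growth factor axis 4 of 14 fell (28.6%, against 15.4% of all genes), Igfbp3 (-2.03 ± 0.35), Igfbp1 (-1.65 ± 0.34), Igfals (-0.79 ± 0.22) and Igf1 (-0.78), and Igf2 rose (0.75). Without vehicle replicate 2 the falls numbered 2 (Igfals at -0.82, adjusted p = 0.0501); without vehicle replicate 4 the Igfals call was also lost (-0.71, adjusted p = 0.0772), and without both, Igfbp3 (adjusted p = 0.0665) and Igfbp1 (0.0975) lost theirs. Growth hormone dependent and sexually dimorphic genes fell in 8 of 26 (30.8%, against 15.4% of all genes). The falls numbered 5 without vehicle replicate 2, 5 without vehicle replicate 4 and 3 without both. Of that list Cyp2a1 alone rose (3.85%, below the 4.45% of all genes).

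Of 17 immediate early genes and Id factors, 4 fell (23.5%, against 15.4% of all genes), and the same number passed without vehicle replicates 2 and 4: Egr1, Klf9 (-1.42 ± 0.16), Cebpb (-1.07 ± 0.19) and Zfp36 (-0.97). Fos and Atf3 read 0.062 and 0.0021. Of the endoplasmic reticulum chaperones 3 of 12 fell (25%, against 15.4% of all genes), Dnajb9 (-1.37 ± 0.38), calnexin Canx (-1.01 ± 0.15) and Hsp90b1 (-0.71 ± 0.22), and P4hb rose (0.37). Without vehicle replicate 4 only 1 of these falls passed: Dnajb9 lost its call without vehicle replicate 3 or 4 (adjusted p = 0.0851 to 0.0925) and Hsp90b1 without vehicle replicate 2 or 4, D3T replicate 4 or TBD replicate 1 (0.0509 to 0.15). Among 13 heat shock genes 3 fell (23.1%; Hspa9, Dnaja1 and Hspa4) and 1 rose (Fkbp4, 1.15 ± 0.28); 1 fell without vehicle replicate 2 and 1 without vehicle replicate 4, and Dnaja1 lost its call without vehicle replicate 2, 3 or 4 (adjusted p = 0.0908 to 0.1). Of 20 cell cycle genes, 1 fell (5%) and 1 rose (5%), against 15.4% and 4.45% of all genes. The fall was the cyclin Ccnd1 (-1.16 ± 0.26). The rise was Ccne1 (0.56 ± 0.18; limma, adjusted p = 0.0455), a call lost in 11 of the 16 fits that leave out 1 array (adjusted p = 0.0584 to 0.191). Slc40a1, the iron exporter ferroportin, which macrophages and hepatocytes carry, led 4 falls among 16 heme and iron genes (25%, against 15.4% of all genes). It read 8.60, 9.12, 8.76 and 9.31 in vehicle and 6.88 to 7.80 (median 7.31) with compounds, a difference of -1.60 ± 0.18 (limma, adjusted p = 3.81e-05).

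Of 37 genes for proteins of the cytosolic ribosome, 13 rose (35.1%, against 4.45% of all genes) and 0 fell, median 0.28 against -0.0041 over all genes, and the median kept its sign in the scalings tried. Apart from Rps24, Rpl6 read 9.55, 9.52, 9.48 and 9.31 in vehicle and 10.11 to 10.90 (median 10.48) with compounds, a rise of 1.01 ± 0.10 (adjusted p = 1.27e-05), and Rplp0 rose by 0.97 ± 0.11 (adjusted p = 5.29e-05). The count was 8 without vehicle replicate 2, 9 without vehicle replicates 2 and 4, and 21 after quantile normalization. Proteasome subunits, NRF2 targets in other settings, rose in 4 of 27 (14.8%, against 4.45% of all genes). These were Psmd4 (0.58 ± 0.12), Psmb5 (0.50 ± 0.084), Psmd11 (0.42) and Psmb2 (0.34). Other Psmb5 probe sets read 0.20 and 0.14 without passing (limma, adjusted p = 0.481 and 0.69). Those of Psmd4 read 0.16 (adjusted p = 0.171) and 1.08 (0.000452). The activator subunit Psme1 read -0.45 ± 0.10 (called lower) on its brightest probe set but 0.44 (adjusted p = 0.0672) on its other, and averaging them gave -0.0049. Respiratory chain subunits split into 3 rises (Cox6c, Cyc1 and Cox6b1) and 4 falls of 33 (9.09% and 12.1%, the falls below the 15.4% of all genes), median -0.015. Secreted plasma proteins split into 6 rises, led by the acute phase protein Orm1 (1.05 ± 0.21) and apolipoprotein Apoc1 (0.56 ± 0.10), and 5 falls of 41 (14.6% and 12.2%, the falls again below 15.4%), led by protein C, Proc (-0.47 ± 0.13); albumin rose by 0.35 ± 0.088. The plasma protein falls numbered 2 without vehicle replicate 2, 3 without vehicle replicate 4 and 8 without TBD replicate 4, and the respiratory chain rises 1 without vehicle replicate 2. Cyc1 and Proc lost their calls without vehicle replicate 2 or 4 (adjusted p = 0.061 to 0.15 for Cyc1 and 0.0593 to 0.0615 for Proc).

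**Figure D3:**
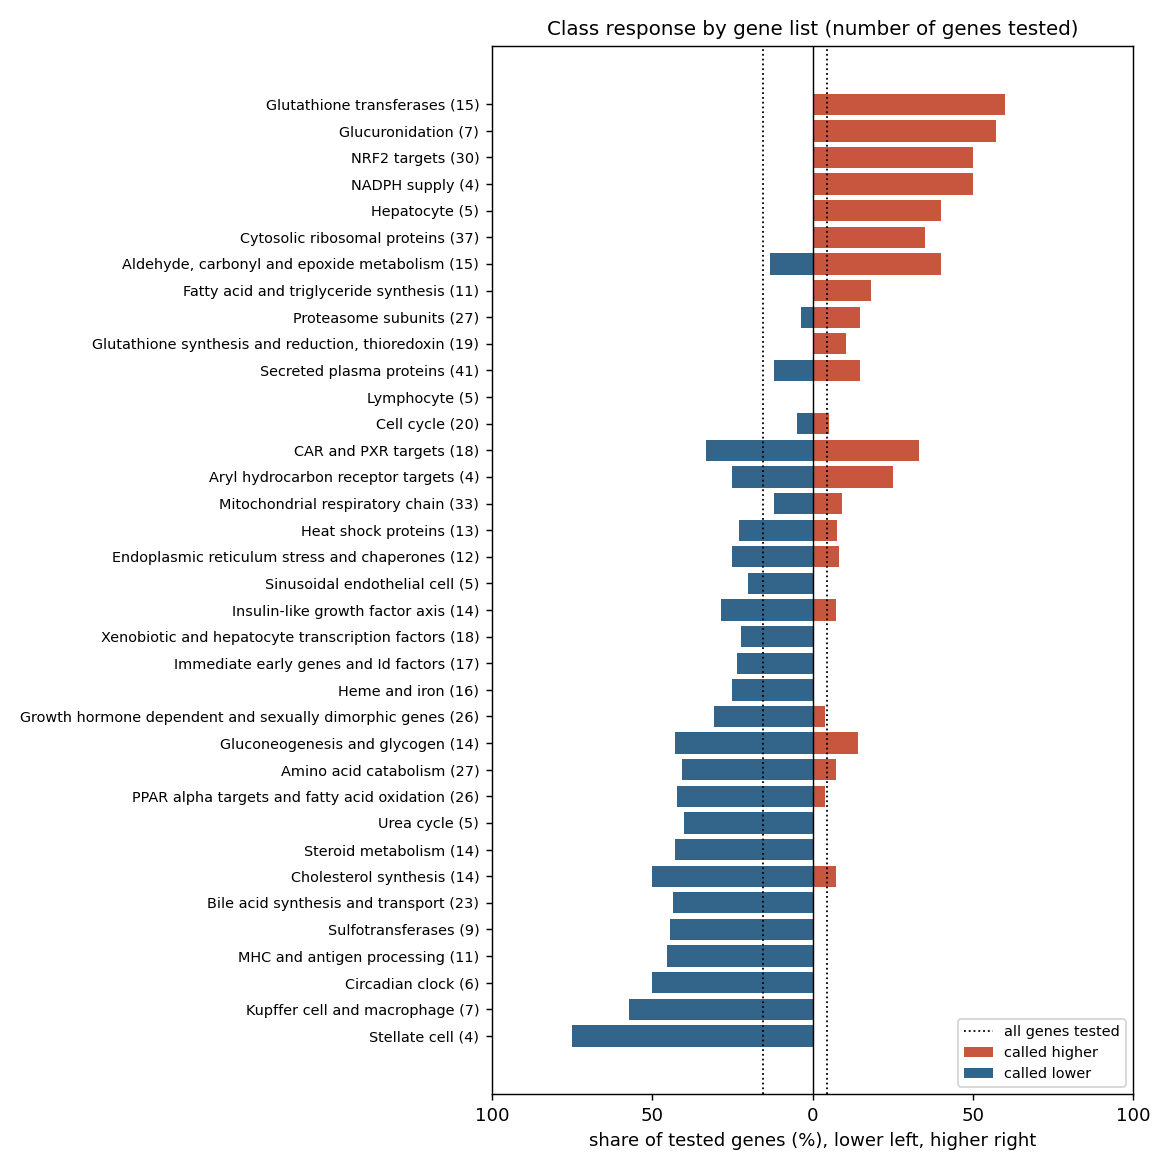
Share of the tested genes of each list (percent, number tested in parentheses) that fell (blue, to the left) or rose (red, to the right) in the class response. Dotted lines mark the shares over all 3104 genes, 15.4% lower and 4.45% higher; glutathione transferase, glucuronidation and NRF2 lists extend only to the right, and bile acid, sulfotransferase, antigen presentation and macrophage lists only to the left.

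Lists can share members, Gsta3 and Ephx1 for example standing in both the NRF2 list and the CAR and PXR list. Where limma called 0 members in a direction, the count at an unadjusted p under 0.05 was 1 fall in the NRF2 list, 1 fall in the glutathione synthesis list, 1 rise in the bile acid list, 2 rises in steroid metabolism, 1 rise in the urea cycle, 2 rises among transcription factors and 1 rise among stellate markers. It stayed at 0 for falls of glutathione transferases, glucuronidation, fatty acid synthesis and ribosomal protein genes, and for rises of sulfotransferases, macrophage markers, antigen presentation, clock, heme and immediate early genes.

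How far the compounds were alike in size was asked directly, by tests that do not use the vehicle mean. The vehicle arrays still entered the estimate of spread that all groups share. An F test of D3T, OLT and TBD found a difference among them for 44 of 5323 probe sets (0.827%), 28 that passed the class test and 16 that did not (limma, Benjamini-Hochberg). Over the 3 pairs, with p-values adjusted over all probe sets and pairs together, D3T and OLT differed for 41 probe sets (0.77%), D3T and TBD for 30 (0.564%), and TBD and OLT for 4 (0.0751%). A missed threshold does not show likeness, so a bound was set: for 745 of the 1067 class calls (69.8%) all 3 pair differences had 95% intervals within 2-fold either way, as they did for 4461 of all 5323 tested (83.8%). The class contrast, 1 of 3 degrees of freedom between groups, carried 69.6% of the summed between-group variation over all tested probe sets, while the median share of a probe set was 37.4%. The medians of 85.9% for rises and 92.2% for falls are over probe sets chosen by that same contrast, which raises them.

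Against vehicle, D3T alone passed for 981 probe sets (18.4%), OLT for 600 (11.3%) and TBD for 693 (13%), all on the same 4 vehicle arrays. Leaving out the D3T arrays gave a class count of 713, leaving out OLT 965 and leaving out TBD 1112. The counts of difference are sensitive to single arrays: without OLT replicate 1 and TBD replicate 4 the F test passed 80 probe sets and the pairs 116 in all.

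**Figure D4:**
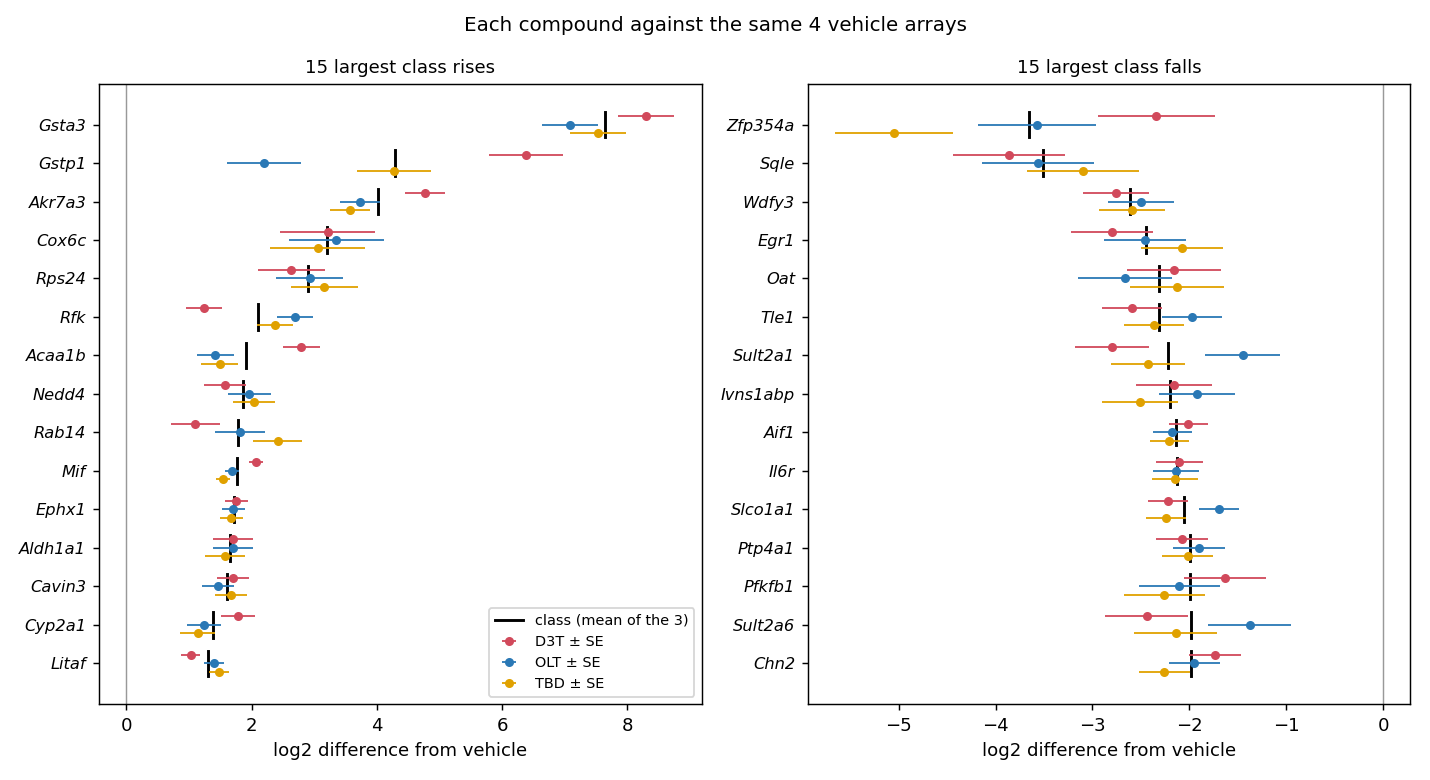
Log2 difference from vehicle with its standard error for D3T (red), OLT (blue) and TBD (yellow), 4 arrays each, for the 15 largest class rises (left) and falls (right); black bars mark the class value. The rule that chose the genes puts all 3 compounds on one side of 0; Ephx1, Aldh1a1, Il6r and Aif1 have nearly coincident points, and Gstp1 and Zfp354a the widest spread.

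Among the large shared changes the likeness could be bounded closely for some. For Ephx1 the 95% interval of the difference was -0.35 to 0.44 for D3T minus OLT, -0.32 to 0.48 for D3T minus TBD and -0.43 to 0.36 for TBD minus OLT, against a class rise of 1.71. For Il6r the intervals were -0.48 to 0.55, -0.47 to 0.56 and -0.53 to 0.50, against a class difference of -2.13. By the measure of range over class difference, the 5 most even genes were Il6r, Rida, Rapgef4, Il18 and Hes1. Rida, an imine deaminase that clears reactive intermediates, read 11.94, 12.04, 12.16 and 11.99 in vehicle and 10.80 to 11.48 (median 11.24) with compounds and showed -0.82, -0.84 and -0.82 for D3T, OLT and TBD. Rapgef4, a cyclic AMP-activated exchange factor, showed -1.44, -1.42 and -1.45, Il18, an interleukin of macrophages, -1.25, -1.22 and -1.24, and the Notch target Hes1 -0.49, -0.49 and -0.48. The rule chose these for their evenness, so it is a description and carries no test. Compound arrays read 3.44 to 3.64 for Hes1, near the array medians of 3.27 to 3.58, and 3.98 to 4.33 for Il18. Evenness at levels this dim is poorly fixed. Another Il18 probe set read -0.57, -0.15 and -0.49 for D3T, OLT and TBD and did not pass the class test (limma, adjusted p = 0.0524).

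Where the compounds differed, D3T, without a ring substituent, was most often the one apart. Gstp1 read 12.36, 12.02, 12.57 and 13.10 with D3T, 9.36, 6.61, 8.92 and 8.43 with OLT and 8.56, 10.69, 10.99 and 11.39 with TBD. D3T exceeded OLT by 4.18 (95% interval 2.93 to 5.44, adjusted p = 0.00366); D3T minus TBD was 2.11 (95% interval 0.85 to 3.36, adjusted p = 0.188) and TBD minus OLT 2.08 (95% interval 0.82 to 3.33, adjusted p = 0.197). Cyp3a2, a male-predominant P450, read 11.14, 11.41, 10.77 and 10.64 with D3T, 13.54, 13.30, 13.29 and 13.44 with OLT and 12.83, 12.89, 13.60 and 13.28 with TBD, against 13.35, 13.95, 13.45 and 13.70 in vehicle. D3T minus OLT was -2.40 (95% interval -2.82 to -1.99, adjusted p = 3.12e-05) and D3T minus TBD -2.16 (95% interval -2.57 to -1.74, adjusted p = 7.56e-05), so the class value of -1.10 came mostly from D3T, and the call was lost without the D3T arrays. Msmo1 behaved alike in direction, with -3.32, -0.84 and -0.72 for D3T, OLT and TBD, D3T minus OLT at -2.48 (95% interval -3.26 to -1.70, adjusted p = 0.00524) and D3T minus TBD at -2.60 (95% interval -3.39 to -1.82, adjusted p = 0.00366).

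Ugt2b1 showed the opposite order, 0.95, 2.94 and 2.90, with D3T minus OLT at -1.99 (95% interval -2.58 to -1.39, adjusted p = 0.00366) and D3T minus TBD at -1.95 (95% interval -2.55 to -1.36, adjusted p = 0.00426); TBD and OLT differed by -0.035 (95% interval -0.63 to 0.56, adjusted p = 0.999). Cyp3a23-3a1, a PXR-inducible P450, changed sign between compounds, at -0.54, 1.07 and 0.84, and its class call (0.46 ± 0.15, adjusted p = 0.0383) was lost without any of vehicle replicates 1, 2 and 4, D3T replicates 1, 2 and 4, OLT replicates 1 and 4 or TBD replicates 1 and 2 (adjusted p = 0.0518 to 0.123). Its other probe sets read -0.53 (adjusted p = 0.0172, the opposite direction), 0.54 (adjusted p = 0.0105) and -0.11 (adjusted p = 0.809). For Cyp1a2, an AhR target, OLT was the compound apart: arrays read 11.65, 11.26, 11.37 and 10.65 in vehicle, 9.03, 9.58, 9.42 and 8.11 with D3T, 12.11, 11.77, 12.29 and 11.80 with OLT and 9.31, 9.36, 9.36 and 9.84 with TBD. D3T minus OLT was -2.96 (95% interval -3.56 to -2.36, adjusted p = 0.00012) and TBD minus OLT -2.53 (95% interval -3.13 to -1.93, adjusted p = 0.000397), so its class difference of -1.06 ± 0.23 describes no single compound. Outside the naming rule and chosen after their values were seen, 7 genes differed among compounds without passing the class test: Id2, Efna1, Abcc2, Ptgr1, Cyp2c6v1, Zfp36l1 and Dab2. The class interval of Ptgr1 nonetheless lay below 0 (-0.77, 95% interval -1.35 to -0.20, adjusted p = 0.0557).

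Without vehicle replicates 2 and 4, 37 of the 105 named genes lost the class call by limma, with no change of direction. Beside those given above they included Cyp2b2 (1.78, adjusted p = 0.0522), Orm1 (1.03, 0.0545), Nr0b2 (-1.53, 0.0686), Msmo1 (-1.29, 0.0724), Got1 (-1.79, 0.0852), Psmd4 (0.51, 0.0865), albumin (0.36, 0.111), Cd74 (-0.92, 0.128) and Psme1 (-0.31, 0.231). Without vehicle replicates 1 and 3, 19 lost it, among them Cyp1a2 (-0.79, adjusted p = 0.0889), Cyp2b2 (1.45, 0.0641), Gsr (1.21, 0.0528), Me1 (1.09, 0.0595), Nr0b2 (-1.22, 0.0847), Fkbp4 (0.79, 0.0699), Dnajb9 (-1.04, 0.174), Ttr (0.39, 0.0559) and albumin (0.34, 0.0766). In that fit 7 ribosomal protein genes rose, and falls numbered 6 in the bile acid list, 5 in the growth hormone list, 3 in the CAR and PXR list and 2 in the insulin-like growth factor axis. Without OLT replicate 1 and TBD replicate 4 no named gene lost its call.

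Over all called genes, 267 of 343 other tested probe sets had the same sign, but only 126 were called in it, and 6 were called in the opposite direction. A shared sign can go with a far smaller size: another Igfbp3 probe set read -0.03 (limma, adjusted p = 0.903). Of 56 named genes with further tested probe sets, 9 called genes had one of the opposite sign. Beside Psme1, Cyp3a23-3a1 and Sult2a1 these were Hsp90b1 (0.34, adjusted p = 0.711), RT1-Bb (0.071, 0.74), Ugt2b35 (-0.078, 0.816), Ccne1 (-0.045, 0.875), Ndufs4 (0.03, 0.927) and Ccnd1 (0.018, 0.962).

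**Figure D5:**
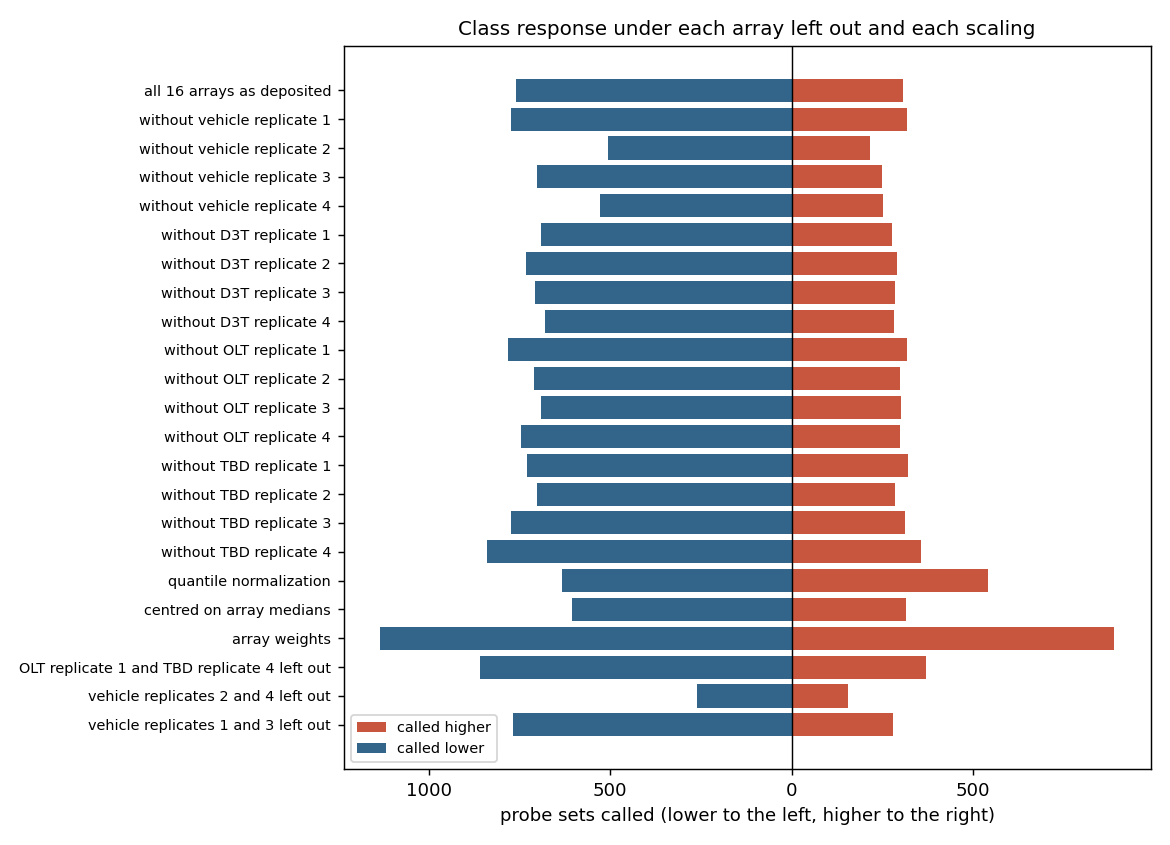
Number of probe sets called lower (blue, left) and higher (red, right) in the class response with all 16 arrays, with each array left out, with sets of arrays left out and under other scalings. Leaving out vehicle replicates 2 and 4 gives the smallest total (155 higher, 260 lower), and array weights the largest.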

How the data were processed

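Expression was measured in 16 livers, 1 array each (biotin label, 1 colour). The authors deposited log2 values; GCRMA is the tool that the submitters' processing notes name, without a version. That method models background from probe sequence and normalises between arrays, so low values depend on the background model. Of 8740 probe sets, 7006 have 1 gene symbol in the platform annotation, 308 several and 1426 none; 6985 were matched to RefSeq by Entrez number. Values were used as deposited. Probe sets above the 40th percentile of their array on at least 4 of 16 arrays were fitted with limma 3.58.1 (R 4.3.3), with 1 mean per group, all groups sharing the spread (12 residual degrees of freedom, median residual SD 0.195), two-sided tests and Benjamini-Hochberg adjustment, threshold 0.05. Class response, F test among compounds and 3 pairs came from this fit; the procedure was tested on simulated data. A gene takes its probe set with the highest mean.

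Named genes are the 15 largest separated rises and falls, up to 3 called members per list, the 5 with the largest F, the 5 most even, and 15 fixed names, of which 1 is not reported here. Members, lists and tests were chosen with earlier results of these data known. Alternatives covered scaling, filters, moderation, array weights, the replicate number as a block, thresholds and arrays left out. Leaving out OLT replicate 1 with TBD replicate 4, vehicle replicates 2 and 4, or vehicle replicates 1 and 3 was chosen after seeing the data. Scan dates were not among the sources used here, so scan batches were not tested.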

Additional observations from a re-analysis of the deposited data

Results flagged for a closer look

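Among the named genes, 1 array stood apart from the other 3 of its group in 28 of 420 groups checked (6.67%), where chance gives about 5% (Dixon's test, gap over range at its 95% critical value). Of these, 10 were on TBD replicate 4, which with OLT replicate 1 lay apart on the second principal component: Zfp354a (3.41), Sqle (5.90), Sult2a1 (10.85), Cyp1a2 (9.84), Me1 (9.94), Srebf1 (6.24), Dbp (4.60), Orm1 (12.55), Ccne1 (7.35) and Igfbp1 (11.12). It was the high array for Sqle, Sult2a1, Cyp1a2, Orm1 and Igfbp1 and the low one for Zfp354a, Me1, Srebf1, Dbp and Ccne1. OLT replicate 1 was apart for Nedd4 (9.12), Sqle (3.69) and Ttr (13.96), OLT replicate 2 for Aldh1a1 (10.63), OLT replicate 3 for Fkbp4 (7.90) and Cd74 (7.90) and OLT replicate 4 for Igfbp3 (6.79). D3T replicate 2 was apart for Egr1 (5.04), D3T replicate 3 for Cyp3a23-3a1 (10.25) and Nqo1 (7.29), D3T replicate 4 for Rab14 (6.43) and TBD replicate 3 for Msmo1 (8.87). In vehicle, replicate 1 was apart for Cyp2a1 (7.03), replicate 2 for Oat (9.44) and Apoc1 (12.37), replicate 3 for Alas1 (10.36) and replicate 4 for Cox6c (5.19) and Dbp (9.30).

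The compounds differed from each other beyond replicate spread in 6 named genes by limma's F test with Benjamini-Hochberg adjustment: Cyp3a2 (adjusted p = 1.6e-05), Cyp1a2 (0.000113), Cyp3a23-3a1 (0.000316), Ugt2b1 (0.00235), Msmo1 (0.0025) and Gstp1 (0.00734). For Cyp1a2 and Cyp3a23-3a1 the fitted difference from vehicle had opposite signs between compounds (Cyp1a2 with OLT did not pass against vehicle), so their class averages describe no single compound.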

How the results depend on the processing

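With 1 array left out at a time, the class count ran from 723 (without vehicle replicate 2) to 1195 (without TBD replicate 4), genes from 418 to 686, list members called from 128 to 183 around 168, separated probe sets from 389 to 566, calls close in size from 520 to 802, the F test from 29 to 62, the pairs from 39 to 93, the class share of between-group variation from 62.4% to 72.7%, and D3T, OLT and TBD alone from 689 to 1139, 422 to 714 and 462 to 814. By construction the count of separated probe sets (385 with all arrays) can only stay or rise when arrays are left out. The choices that follow were made after seeing the data. Leaving out vehicle replicates 2 and 4 gave 415 probe sets, 223 genes and 81 list members. Leaving out vehicle replicates 1 and 3 gave 1047 probe sets. Leaving out OLT replicate 1 and TBD replicate 4 gave 592 separated probe sets, 80 by the F test and 116 over the pairs.

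Quantile normalization gave 73 probe sets by the F test and 118 over the pairs, and centring on array medians gave 40 over the pairs, 361 for OLT and 426 for TBD. Array weights gave 2021 class calls (888 higher, 1133 lower), 1185 genes, 275 list members, 1580 close in size, 184 by the F test, 234 over the pairs and 2263, 1066 and 1333 for D3T, OLT and TBD; 1 vehicle array took a weight of 19.4 in that fit, against at most 2.62 for any other. Stricter rules cut the counts by construction: a minimum fold of 1.5 (limma's treat) left 131 probe sets, 76 genes and 34 list members, an adjusted p under 0.01 left 618, 365 and 111, and a 1.5-fold bound left 345 calls close in size. The sample titles do not say whether the replicate numbers pair the rats. Same-numbered arrays deviated together (r over 0.1) in 8 of 24 pairs, with r from -0.52 to 0.32. Differently numbered arrays were not compared, so these values cannot settle whether the numbers mark a block. A fit with the number as a block called 990 probe sets.

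For single named genes, 3392 values kept direction and side of the threshold, 277 lost the call and 3 gained one. The 1 reversal was Gclm, which read -0.40 (adjusted p = 0.384) when its probe sets were averaged; the disagreement between its probe sets is given above. No setting shifted the median of all probe sets by over 0.1. The cause of each move was not tested. The 4 arrays per group limit the precision; no detection calls were used, so signal over background was not measured and folds of probe sets under the array median have no fixed lower end.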
